A study of Homo sapiens with 6 samples.

Results

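Nuclear receptor co-regulators are the proteins through which a DNA-bound receptor changes transcription. Without ligand, a retinoic acid receptor holds a corepressor complex built on NCoR and a histone deacetylase. Ligand binding releases that complex and recruits p160 coactivators, the histone acetyltransferases p300 and CBP, and the Mediator complex, which contacts RNA polymerase II. The genes described here are 9 co-regulators taken by symbol from a fixed list: the p160 coactivators NCOA1, NCOA2 and NCOA3, the acetyltransferase genes EP300 and CREBBP, the Mediator subunit MED1, the corepressor NCOR1, its deacetylase partner HDAC3, and NRIP1, which encodes the ligand-dependent corepressor RIP140. All 9 were matched to an identifier among the 60675 of the count table, and all 9 were among the 16996 genes that passed the filter on low counts.

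Gene counts came from 6 RNA-seq libraries of PANC1, an established human pancreatic cancer cell line grown in DMEM with fetal bovine serum. The first group was 3 libraries of wild-type cells (WT), labelled as untreated. The second was 3 libraries of cells in which RARG, which encodes retinoic acid receptor gamma, had been cut with Cas9 and a pair of guide RNAs from a transfected plasmid (RARG-KO), followed by puromycin selection and expansion of single clones. How many clones the RARG-KO libraries hold, and whether WT cells went through the same transfection and cloning, is not given in the labels. A difference made by RARG and a difference between clones can therefore not be told apart, and p-values cover only the spread between these libraries, which may be technical. By its title, the series asked whether such cells need RARG to proliferate.

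Libraries held 29386408 to 31608089 counts. RARG itself stood at 39.1, 40.6 and 41.6 CPM (counts scaled to library size, with TMM factors) in WT replicates 1 to 3 and at 28.4, 24.1 and 28.5 CPM in RARG-KO, so 66.8% of its WT level remained in a count that sums the whole gene. The 5 epithelial markers checked (KRT7, KRT8, KRT18, KRT19 and EPCAM) were all measured, at a summed 2898 to 2961 CPM in WT and 1271 to 1348 CPM in RARG-KO. Most of this sum was KRT8, with means of 1927 CPM in WT and 901 CPM in RARG-KO. KRT7 (8.39 and 3.39 CPM) and EPCAM (7.98 and 5.12 CPM) were low. Of 14 markers of leukocytes, endothelium and fibroblasts, 4 passed the filter. These were ITGAM and CD14, at a summed 4.84 to 5.39 CPM in WT and 1.07 to 2.16 CPM in RARG-KO, KDR at 1.30 to 1.60 and 5.15 to 5.81 CPM, and COL1A1 at 99.1 to 104 and 205 to 219 CPM. DCN, a fibroblast marker, had 0 reads in all 6 libraries. The part of these marker shifts in the results below was not tested.

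Of the 9 co-regulators, 5 were lower and 2 were higher in RARG-KO, and 2 did not pass the test (edgeR quasi-likelihood test, Benjamini-Hochberg adjustment over all genes tested, threshold 0.05). NRIP1 fell to 29.9% of its WT level, NCOA3 to 55.8% and NCOA2 to 64.6%, whereas NCOA1 rose to 144%. The other changes were small: CREBBP fell by 9.46%, MED1 fell by 6.73% and HDAC3 rose by 10.7%, while NCOR1 and EP300 did not pass. Of all genes tested, 58.0% passed the same test, 28.7% higher and 29.3% lower, so 7 of 9 (77.8%) is read against a background in which most genes passed. The groups did not overlap in 7 of the 9 genes, against 62.6% of all genes tested. The median log2 fold change (RARG-KO over WT) of the 9 genes was -0.10, against 0.01 over all genes tested. In bulk RNA, fewer cells that express a gene and less of its RNA per cell cannot be told apart.

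**Figure D1:**
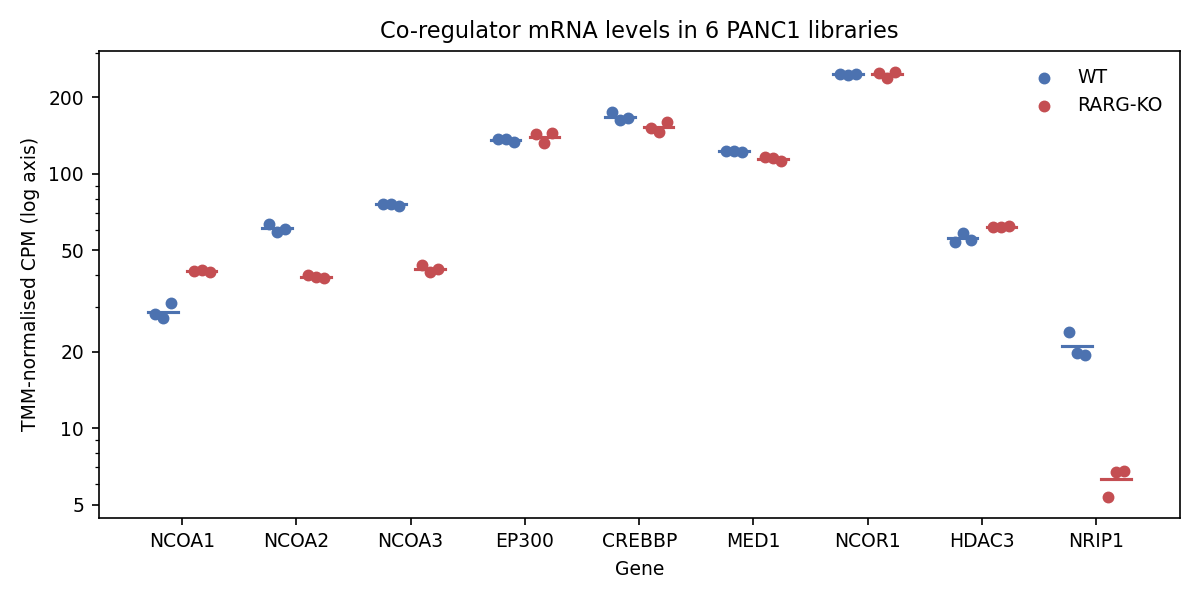
TMM-normalised CPM (log axis) of the 9 co-regulator genes; each point is 1 library, blue for WT and red for RARG-KO, and each bar is the mean of 3 libraries. NRIP1 dropped from a mean of 21.0 to 6.29 CPM, NCOA1 rose from 28.7 to 41.5 CPM, and the points of NCOR1 and of EP300 overlapped between the groups.

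The promoters of NRIP1 and NCOA3, the pair of genes with the deepest falls, are shown because retinoic acid receptors bind direct repeats of a short hexamer. The sequences are the 250 bases before the RefSeq start site (GRCh38.p14), 5′ to 3′ on the gene's own strand, with a match to a receptor hexamer in capitals.
NRIP1, chr21:15065937-15066186, minus strand: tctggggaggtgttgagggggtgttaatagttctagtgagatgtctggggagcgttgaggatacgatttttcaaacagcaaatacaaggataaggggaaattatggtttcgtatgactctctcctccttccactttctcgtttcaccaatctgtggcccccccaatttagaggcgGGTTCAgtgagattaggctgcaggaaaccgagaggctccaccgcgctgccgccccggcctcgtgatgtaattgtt
NCOA3, chr20:47501637-47501886, plus strand: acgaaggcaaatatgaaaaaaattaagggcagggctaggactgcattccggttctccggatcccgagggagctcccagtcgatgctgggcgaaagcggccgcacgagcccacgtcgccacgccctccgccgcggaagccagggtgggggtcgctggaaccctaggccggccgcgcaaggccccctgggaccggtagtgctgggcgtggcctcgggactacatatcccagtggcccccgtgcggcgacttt

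Both strands of the promoter windows, which run from 250 bases before to 50 after each start site, were searched for AGGTCA or one of its variants, namely AGTTCA or GGGTCA or GGTTCA. RefSeq windows were found for 8 of the 9 genes, 14 windows in all because some genes have several start sites. A single hexamer was present in 2 of these 14 windows, against 38.6% of 35116 windows of all genes. The match in NRIP1 was GGTTCA, from 75 to 70 bases before the start, and the other was in HDAC3, from 224 to 219 bases before. No window of the co-regulators held a direct repeat of these hexamers spaced by 1, 2 or 5 bases. Such repeats were rare in all windows, with 0.131%, 0.0399% and 0.0883% for these spacings. The absence of a match speaks only of these letters in these windows, and the counts do not show which start site was used.

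Base composition differed between the printed stretches. G and C made up 50.8% of the 250 bases of NRIP1, with 11 CpG, and 66.4% of those of NCOA3, with 25 CpG. Over the full windows of 300 bases the values were 50.7% for NRIP1 and 66.7% for NCOA3. The median over all windows was 58.7%, so NRIP1 lay below it and NCOA3 above.

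The p160 family changed in both directions. Its members bind the ligand-bound receptor through short leucine motifs and carry acetyltransferases with them. NCOA1 (SRC-1; ENSG00000084676, chromosome 2, 24491914 to 24770702, GRCh38) had 28.1, 27.0 and 31.1 CPM in the WT libraries (replicates 1, 2 and 3, in this order throughout) and 41.5, 41.7 and 41.1 CPM in RARG-KO. Every RARG-KO library was above every WT library, and the RARG-KO values lay closer together. The means were 28.7 ± 2.12 and 41.5 ± 0.28 CPM (SD, n = 3), and the log2 fold change was 0.53 ± 0.06 (SE; edgeR adjusted p = 1.70e-07).

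NCOA2 (SRC-2, also TIF2; ENSG00000140396, chromosome 8, 70109762 to 70403805) had 63.3, 59.3 and 60.5 CPM in WT and 39.9, 39.4 and 38.9 CPM in RARG-KO. All RARG-KO values were below all WT values. The means were 61.0 ± 2.03 and 39.4 ± 0.52 CPM (SD, n = 3), and the log2 fold change was -0.63 ± 0.05 (SE; edgeR adjusted p = 5.42e-10). NCOA3 (SRC-3, also AIB1, a gene amplified in some breast cancers; ENSG00000124151, chromosome 20, 47501902 to 47656877) had 76.5, 76.3 and 75.0 CPM in WT and 43.8, 40.9 and 42.3 CPM in RARG-KO. The WT libraries were nearly level and the RARG-KO libraries all far below them. The log2 fold change was -0.84 ± 0.05 (SE; edgeR adjusted p = 1.84e-12). NCOA3 shares 96 exonic bases with SULF2 on the other strand, but SULF2 had 133 reads in all libraries against 10739 of NCOA3.

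Divided by exon length, NCOA3 was the most abundant of the p160 mRNAs in WT, followed by NCOA2 and NCOA1. Levels per length were 9.04 ± 0.10 CPM per kb for NCOA3, 6.09 ± 0.20 for NCOA2 and 3.33 ± 0.25 for NCOA1 (SD, n = 3). In RARG-KO they were 5.04 ± 0.17 for NCOA3, 3.93 ± 0.05 for NCOA2 and 4.80 ± 0.03 for NCOA1, so NCOA1 passed NCOA2 in the order. The summed level of the p160 mRNAs went from 18.4 ± 0.28 to 13.8 ± 0.21 CPM per kb (SD, n = 3), with a range of 18.1 to 18.7 in WT and 13.6 to 14.0 in RARG-KO. NCOA1 made up 18.0% ± 1.19 of this sum in WT and 34.9% ± 0.54 in RARG-KO (SD, n = 3), and NCOA3 49.0% ± 1.03 and 36.6% ± 0.75. NCOA2 had the smaller shift in share, from 33.0% ± 0.72 to 28.5% ± 0.24.

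**Figure D2:**
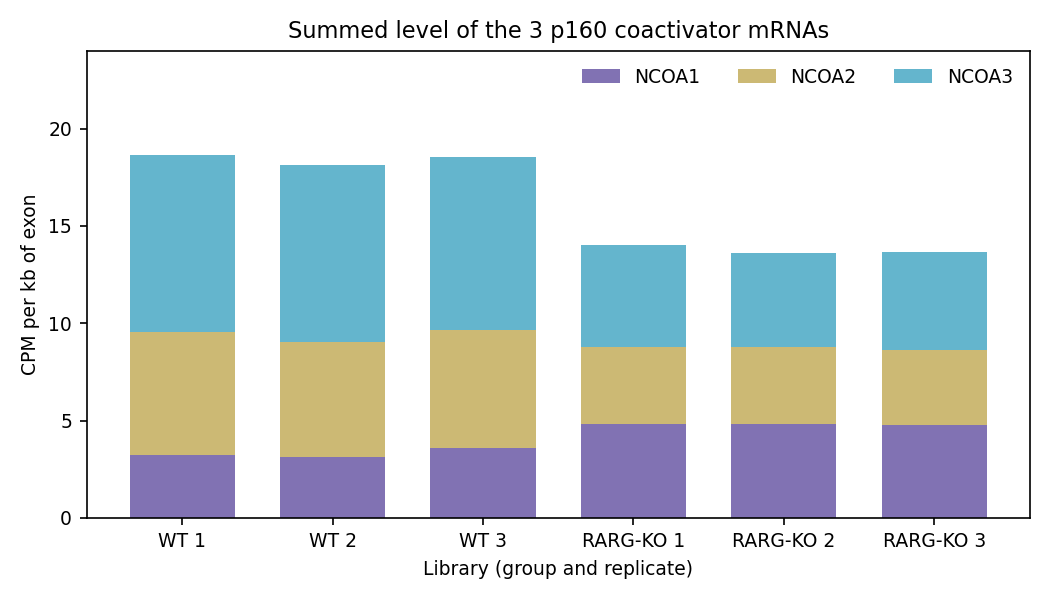
Level of the p160 coactivator mRNAs NCOA1, NCOA2 and NCOA3 stacked for each of the 6 libraries, in CPM per kb of exon. The sum stood at 18.1 to 18.7 in WT and at 13.6 to 14.0 in RARG-KO, and the NCOA1 segment was taller in every RARG-KO library.

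A ratio of counts inside one library does not depend on how libraries are scaled. The ratio of NCOA3 to NCOA1 counts was 2.72, 2.83 and 2.41 in WT and 1.05, 0.982 and 1.03 in RARG-KO. NCOA2 to NCOA1 lay between 1.95 and 2.25 in WT and between 0.945 and 0.962 in RARG-KO. On the log2 scale these ratios dropped by 1.38 ± 0.08 and by 1.16 ± 0.07 (SE), while NCOA3 to NCOA2 differed less, by -0.21 ± 0.04 (SE). Across the 8 ratios computed between co-regulators, the groups did not overlap in any. The exact two-sided permutation p was 0.1 for each, which is the smallest that 3 against 3 libraries can give, and 0.1 after Benjamini-Hochberg adjustment over the 8 ratios, so none could pass a threshold of 0.05.

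The falls of NCOA2 and NCOA3 were set beside those of their neighbours, the 20 nearest tested protein-coding genes on each side. Around NCOA2, 30 of 40 neighbours were lower in RARG-KO and 2 were higher, with a median log2 fold change of -0.54. NCOA2 lay inside their spread, with 15 neighbours below it and 25 above. With the medians of neighbours removed, NCOA2 stood at -0.10 and no longer passed (edgeR adjusted p = 0.109, and 1.98e-30 to 0.109 over the alternatives). Around NCOA3, 30 of 40 were likewise lower and 5 higher, with a median of -0.49 and 9 neighbours below NCOA3. With those medians removed NCOA3 was still lower, at -0.35 (edgeR adjusted p = 1.45e-06, and 1.61e-59 to 1.45e-06 over the alternatives). Fits of this kind take the neighbour median as a fixed value, so their p-values leave out the spread between neighbours. For NCOA3 the neighbours had quartiles of -0.81 and -0.25, and whether it lay outside its region was not tested.

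The neighbours of NCOA1 did not move as one. Of its 40 neighbours, 12 were higher and 10 lower, with a median of 0.04, and only 2 had a log2 fold change above that of NCOA1. Its value with the medians removed was 0.49 (edgeR adjusted p = 6.56e-07, and 7.67e-17 to 8.62e-06 over the alternatives).

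**Figure D3:**
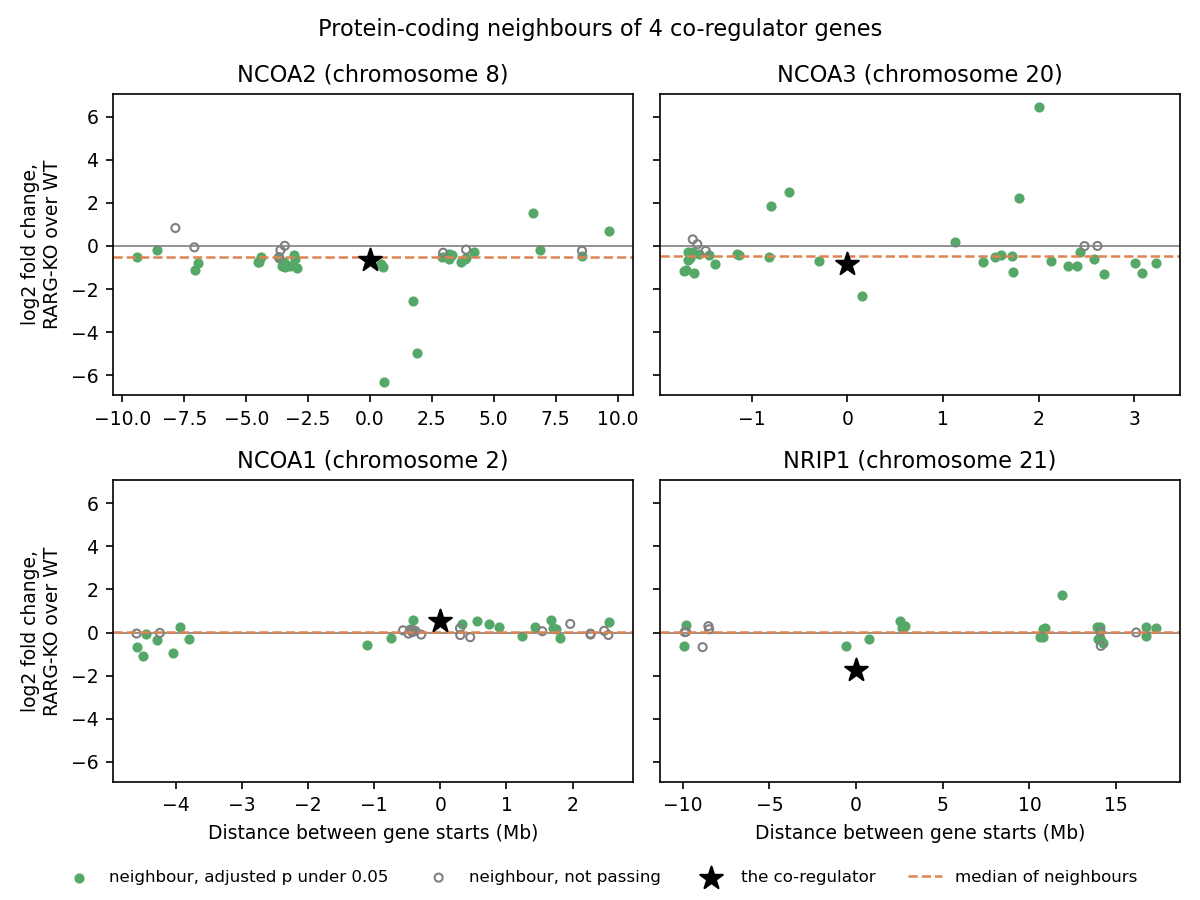
Log2 fold change (RARG-KO over WT) of tested protein-coding neighbours by distance between gene starts in Mb, for NCOA2, NCOA3, NCOA1 and NRIP1; filled points passed the test, the star is the co-regulator and the dashed line the median of neighbours. Around NCOA2 and NCOA3 the dashed line lies at -0.54 and -0.49, and NRIP1 lies below all 28 of its neighbours.

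EP300 and CREBBP encode the paralogous acetyltransferases p300 and CBP, which acetylate histones at enhancers. EP300 (ENSG00000100393, chromosome 22, 41091786 to 41180079) had 137, 137 and 134 CPM in the WT libraries and 144, 133 and 144 CPM in RARG-KO. RARG-KO replicate 2 lay below the WT values and the others above them, so the groups overlapped. The log2 fold change was 0.04 ± 0.04 (SE), with a 95% interval of -0.03 to 0.12 (edgeR adjusted p = 0.333). Without RARG-KO replicate 2 it was 0.09 and passed (edgeR adjusted p = 0.0226), and with the medians of neighbours removed, which were 0.15, it was -0.11 (0.0235). Its adjusted p spanned 0.0226 to 0.630 across the alternatives. The direction of EP300 thus depended on this choice.

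CREBBP (ENSG00000005339, chromosome 16, 3725054 to 3880726) had 175, 163 and 167 CPM in WT and 152, 146 and 159 CPM in RARG-KO. The highest RARG-KO library was just below the lowest WT library. The log2 fold change was -0.14 ± 0.04 (SE; edgeR adjusted p = 0.00344). The median of its 40 neighbours was 0.14, opposite in sign, and 19 of them were higher and 4 lower. With that median removed CREBBP was at -0.29. The ratio of EP300 to CREBBP counts was 0.783, 0.841 and 0.805 in WT and 0.948, 0.910 and 0.906 in RARG-KO, a log2 difference of 0.19 ± 0.04 (SE). Undivided, CREBBP was the higher in WT, with a mean of 168 CPM against 136 CPM for EP300. Divided by the joined length of all annotated exons, the paralogs were level in WT, at 10.9 ± 0.13 for EP300 and 10.9 ± 0.40 CPM per kb for CREBBP (SD, n = 3). In RARG-KO these divided levels were 11.2 ± 0.54 for EP300 and 9.83 ± 0.44 for CREBBP. They depend on which isoforms the cells use.

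MED1 encodes the Mediator subunit that binds nuclear receptors directly (ENSG00000125686, chromosome 17, 39404285 to 39451286). Its levels were 124, 124 and 122 CPM in WT and 116, 115 and 112 CPM in RARG-KO. The groups did not overlap, but the step between them was small, and the log2 fold change was -0.10 ± 0.04 (SE; edgeR adjusted p = 0.0184). This call was lost with upper-quartile factors (0.132), with the replicate block (0.0597), and without WT replicate 1 (0.0768), WT replicate 2 (0.0602) or RARG-KO replicate 3 (0.0799). Its adjusted p spanned 5.56e-07 to 0.132 across the alternatives. With the medians of neighbours removed, which were 0.19, MED1 was at -0.29.

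NCOR1 encodes the scaffold of the corepressor complex of unliganded receptors (ENSG00000141027, chromosome 17, 16029157 to 16218185). Its levels were 248, 244 and 247 CPM in WT and 250, 239 and 252 CPM in RARG-KO. The groups overlapped fully, with means of 246 ± 1.83 and 247 ± 6.87 CPM (SD, n = 3). The log2 fold change had a 95% interval of -0.06 to 0.07 (edgeR adjusted p = 0.904). NCOR1 shares 321 exonic bases with PIGL on the other strand, which had 5.34% as many reads.

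HDAC3, the deacetylase that NCoR activates (ENSG00000171720, chromosome 5, 141620876 to 141636870), had 54.1, 58.6 and 55.2 CPM in WT and 62.0, 61.5 and 62.4 CPM in RARG-KO. All RARG-KO libraries were above all WT libraries. The log2 fold change was 0.15 ± 0.05 (SE; edgeR adjusted p = 0.0102), and without WT replicate 1 it was 0.12 and did not pass (0.0630, and 3.49e-08 to 0.0630 over the alternatives). Of its neighbours, 19 of 40 were lower and 5 higher, with a median of -0.32 and quartiles of -1.01 and -0.05. Most neighbours on one side were clustered protocadherin genes, all with negative values, whereas values outside that family went both ways. With the median removed HDAC3 was at 0.47, a value that leans on this family and may not hold for the rest of the region. Counts of HDAC3 relative to NCOR1 were 0.218, 0.240 and 0.224 in WT and 0.248, 0.257 and 0.248 in RARG-KO.

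NRIP1 had the largest change of the 9 genes. RIP140, its product, binds liganded receptors in the place of coactivators and brings in deacetylases and CtBP, and NRIP1 is itself known as a gene induced by retinoic acid and by estrogen. NRIP1 (ENSG00000180530, chromosome 21, 14961235 to 15065936) had 23.9, 19.7 and 19.4 CPM in the WT libraries and 5.37, 6.74 and 6.75 CPM in RARG-KO. The lowest WT library stood far above the highest RARG-KO library, and WT replicate 1 was the highest of all. Summed over a group, 1866 WT reads and 591 RARG-KO reads were counted. The means of 21.0 ± 2.54 and 6.29 ± 0.79 CPM (SD, n = 3) differed 3.34-fold. The log2 fold change was -1.74 ± 0.10 (SE; edgeR adjusted p = 5.31e-12). NRIP1 alone of the 9 genes changed by at least 2-fold. Of all genes tested, 3.19% had a lower log2 fold change than NRIP1. The share of all genes that changed by at least 2-fold was not counted.

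The ratio of NRIP1 to NCOR1 counts went from 0.0967, 0.0808 and 0.0787 in WT to 0.0215, 0.0282 and 0.0268 in RARG-KO. Relative to NCOA1, the coactivator that rose, NRIP1 went from 0.853, 0.731 and 0.624 to 0.130, 0.162 and 0.164. On the log2 scale these were drops of 1.74 ± 0.15 and 2.27 ± 0.17 (SE), the latter the largest of the 8 ratios.

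All 28 tested neighbours of NRIP1 on chromosome 21 lay above it, and their median was 0.04. These neighbours reach up to 17.3 Mb away, since few genes lie near NRIP1. The nearest on either side, chosen by distance alone, were HSPA13 at 0.59 Mb and USP25 at 0.77 Mb, with log2 fold changes of -0.64 and -0.29. A long noncoding RNA gene that shares 87 exonic bases on the same strand, ENSG00000235609, was lower too, by a log2 of -2.26 with 134 reads in all, 5.45% of those of NRIP1. The annotated gene on the other strand that shares exonic bases, ENSG00000229047, had 0 reads.

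**Figure D4:**
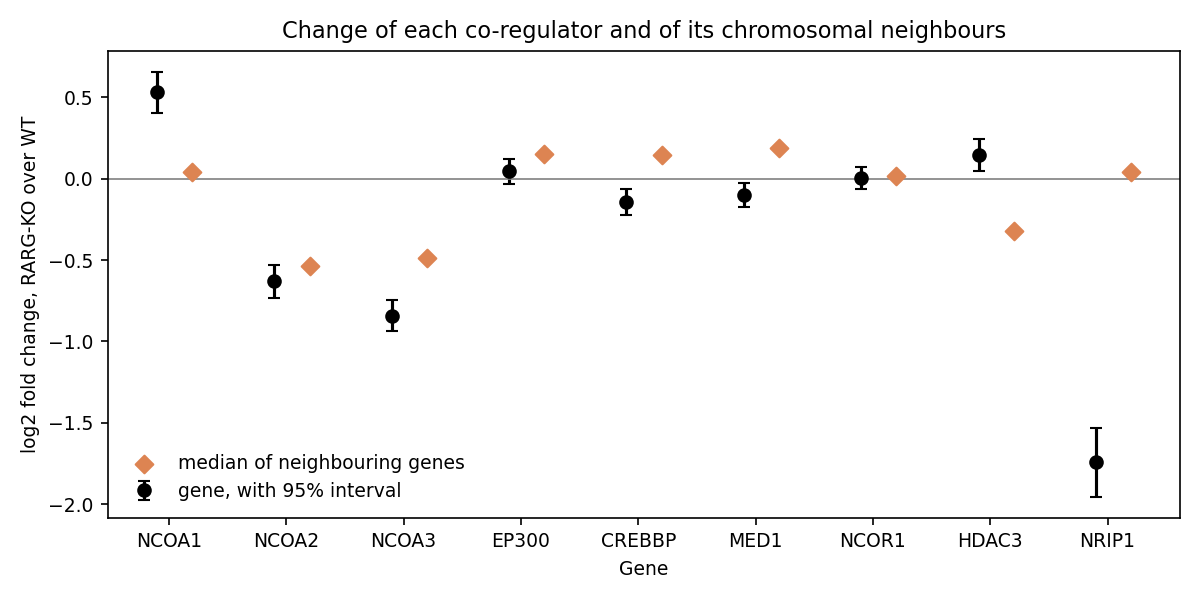
Log2 fold change (RARG-KO over WT) of each co-regulator with its 95% interval (black) and the median of its protein-coding neighbours (orange diamonds). NRIP1 at -1.74 and NCOA1 at 0.53 lie far from neighbour medians of 0.04, whereas NCOA2 at -0.63 lies near its -0.54.

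Ordered by level per exon length in WT, the genes ran from MED1 (16.8 ± 0.16 CPM per kb, SD, n = 3) and NCOR1 (16.0 ± 0.12) through HDAC3 (12.1 ± 0.51), EP300, CREBBP, NCOA3, NCOA2 and NCOA1 to NRIP1 (2.47 ± 0.30). Neighbours in this order did not overlap over the 3 libraries except EP300 and CREBBP. In RARG-KO, NCOR1 (16.0 ± 0.45) and MED1 (15.6 ± 0.28) overlapped at the top, and NRIP1 (0.740 ± 0.093) was again the lowest. Apart from that top pair, NCOA1 and NCOA2 were the genes whose order differed from WT. Lengths are those of all annotated exons of a gene joined, so these levels depend on which isoforms the cells use.

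For the genes that changed most, the genes with the nearest profile were sought among 11279 with at least 5 CPM in a group, by Euclidean distance of centred log2 CPM over the 6 libraries. Nearest to NRIP1 were MGST1 (distance 0.252), SEL1L3 (0.282) and ADGRB1 (0.302), with log2 fold changes of -1.59 ± 0.15, -1.70 ± 0.12 and -1.71 ± 0.13 (SE). MGST1, a microsomal glutathione transferase gene, had 7.23, 5.94 and 6.12 CPM in WT and 1.78, 2.48 and 2.16 CPM in RARG-KO. Like NRIP1, it was highest in WT replicate 1 and lowest in RARG-KO replicate 1, a likeness that the search over these same libraries favours. Among the nearest to NCOA3 were the pseudokinase gene STK40 (0.0340) and RPS16 (0.0507), a ribosomal protein gene. Nearest to NCOA2 were PABPC1 (0.0375), SAMD4B (0.0388) and STK4 (0.0418), on chromosomes 8, 19 and 20. With only 2 groups, closeness mostly means a similar fold change.

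Other genes of the machinery were counted in 5 lists without the 9 co-regulators. Of 85 tested genes in all, 27 were higher and 27 lower (63.5% passed, near the 58.0% of all genes), with a median log2 of -0.02. Among 18 other coactivators, 8 were lower and 5 higher, with a median of -0.04. NCOA4, an androgen receptor coactivator that also carries ferritin to autophagy, fell from 198 to 130 CPM, at a log2 of -0.61 ± 0.03 (SE), and PPRC1, a relative of PGC-1, by -0.78 ± 0.04. The acetyltransferase gene KAT2B (0.51 ± 0.06) and PNRC1 (0.55 ± 0.07) rose.

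Among 6 partners of the NCoR-HDAC3 complex, 1 was higher and 2 lower, with a median of -0.50. TBL1X, a core subunit that exchanges corepressors for coactivators, rose by 0.30 ± 0.06 (SE). CORO2A fell by -1.31 ± 0.16 and BCL6, the gene of a repressor that recruits corepressors, by -0.89 ± 0.09. GPS2 (-0.94 ± 0.45), TBL1XR1 (-0.12 ± 0.05) and ZBTB33 (0.07 ± 0.04) did not pass. GPS2 had 0.761, 7.47 and 2.30 CPM in WT and 1.56, 1.43 and 2.51 CPM in RARG-KO. The groups overlapped, WT replicate 2 held 224 of the 315 WT reads, and the lowest library was a WT library as well. The median of -0.50 fell in the gap between BCL6 and TBL1XR1, with no gene of the list near it, and GPS2 was among the genes below it.

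Of 18 other corepressor genes, 9 were higher and 4 lower, with a median of 0.09. LCOR, a ligand-dependent corepressor gene like NRIP1, had means of 53.9 ± 1.53 and 25.2 ± 1.81 CPM (SD, n = 3) and fell by -1.10 ± 0.06 (log2, SE). CTBP2, which encodes a partner of RIP140, fell by -0.86 ± 0.04, but shares 3416 exonic bases with ZRANB1 on the other strand, which had 20.3% as many reads. HDAC5 (1.03 ± 0.10) and HDAC2 (0.29 ± 0.04) rose. With the medians of neighbours removed HDAC2 was at 0.07 and did not pass (edgeR adjusted p = 0.101).

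Of 31 other Mediator genes, 9 were higher, 7 lower and 15 did not pass, with a median of 0.03. MED24 had means of 54.7 ± 1.93 and 89.2 ± 2.71 CPM (SD, n = 3) and rose by 0.70 ± 0.04 (log2, SE), MED19 by 0.58 ± 0.06, while MED10 (-0.95 ± 0.06) and MED29 (-0.70 ± 0.03) fell. Of 12 genes of transcription factors that bind p300 or CBP, 6 were lower and 3 higher, with a median of -0.10. HIF1A, the hypoxia-inducible factor gene, had means of 171 ± 5.66 and 86.8 ± 3.04 CPM (SD, n = 3) and fell by -0.98 ± 0.04 (log2, SE). SMAD4 (0.44 ± 0.05) and SMAD3 (0.33 ± 0.03) rose.

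**Figure D5:**
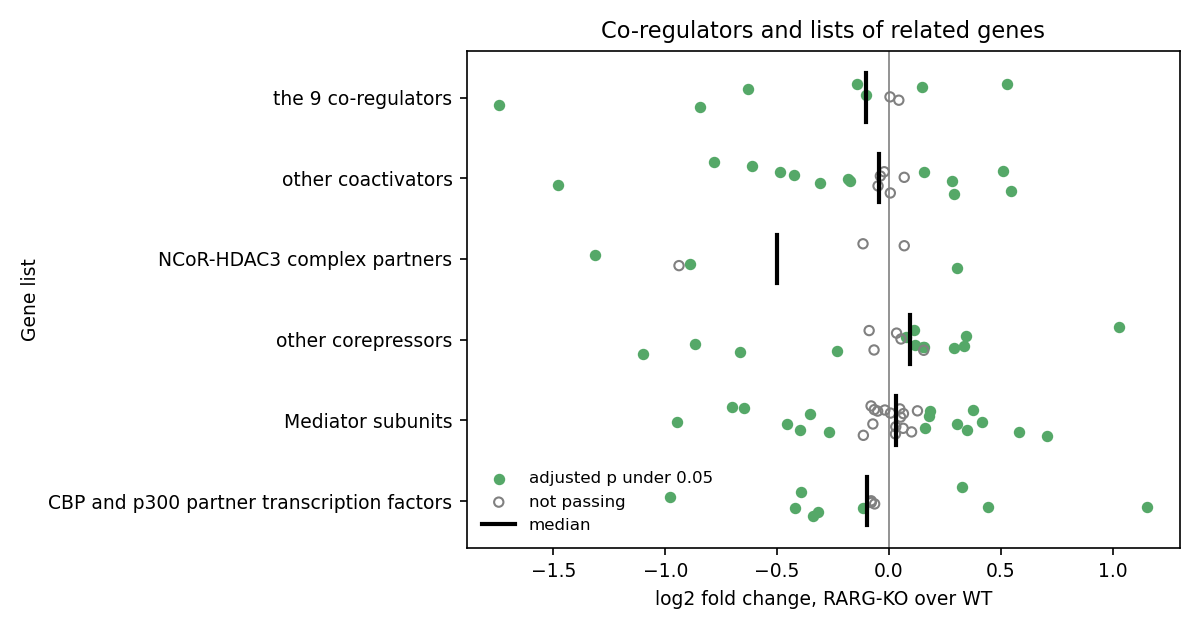
Log2 fold change (RARG-KO over WT) of the 9 co-regulators and of the genes of 5 related lists; filled points passed the test, open points did not, and black bars are medians. Medians ranged from -0.50 for the 6 NCoR-HDAC3 complex partners to 0.09 for the other corepressors. The -0.50 falls in a gap between BCL6 (-0.89) and TBL1XR1 (-0.12), with no gene of that list near it. GPS2 (-0.94), which did not pass, is among the genes below it.

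As with NCOA2 and NCOA3, several of these changes lay among genes that had moved the same way. In 6 of the falling genes named from the lists (NCOA4, PPRC1, LCOR and CTBP2 on chromosome 10, MED10 on chromosome 5 and MED29 on chromosome 19) the median of the neighbours was -0.50 to -0.76. In CORO2A, BCL6 and HIF1A it was -0.03 to -0.07. With the medians removed, NCOA4 (0.07) and MED29 (0.05) changed sign and did not pass, while LCOR (-0.51), MED10 (-0.40), CTBP2 (-0.35) and PPRC1 (-0.28) were still lower (edgeR). Of the 9 rising genes named from the lists, 4 had neighbours with a median of 0.25 to 0.30. With these medians removed KAT2B was at 0.21, SMAD4 at 0.19, PNRC1 at 0.28 and MED19 at 0.33, and each was still called higher (edgeR). TBL1X was at 0.17 and was likewise still called. All calls made with medians removed take these as fixed values and leave out the spread between neighbours.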

How the data were processed

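Total RNA of 6 PANC1 libraries was sequenced as paired ends, per the labels, whose extraction text also has a line on chromatin. The authors deposited raw counts per Ensembl gene in 1 table. HISAT2 2.1.0, Bowtie2 2.2.3, featureCounts and DESeq2, with GRCh38 and hg38, are named per the submitters' processing notes. Settings, annotation release and strand use: not given in the sources used here.

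Counts were tested in edgeR 4.0.16 (R 4.3.3) with TMM factors, filterByExpr, glmQLFit and glmQLFTest, group only, and Benjamini-Hochberg adjustment over 16996 genes. The fit was tested on simulated data in which few genes changed and all genes had the same spread. That run does not cover a table in which most genes passed. SE is the absolute log2 fold change over the square root of F. Positions and exon lengths came from GENCODE 29 (GRCh38) and promoters from RefSeq (GRCh38.p14). A planned description of protein motifs was not made, as protein sequences were not used here.

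The genes, lists, neighbour medians and tests were chosen with earlier results of these data known. Named were RARG, the 9 co-regulators, up to 2 rising and 2 falling genes per list by adjusted p, and the 3 nearest profiles of the 3 most changed. Some items this rule selects are not reported here. HSPA13 and USP25 were added outside this rule as the genes nearest to NRIP1, and list genes that did not pass were named after their values were seen. Alternatives were other factors (RLE, upper quartile), no filter, DESeq2 1.42.0, the replicate block, neighbour medians removed as an offset, and each library left out.

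No 2 libraries of a group agreed within counting noise (chi-square per degree of freedom 2.18 to 5.59), so none was treated as the same library deposited again. This does not show that they came from separate cultures.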

Additional observations from a re-analysis of the deposited data

How the results depend on the processing

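NRIP1, NCOA3, NCOA1 and CREBBP kept their direction and their call under all alternatives run, with log2 ranges of -1.79 to -1.64, -0.86 to -0.35, 0.49 to 0.59 and -0.29 to -0.11. Falling co-regulators numbered 4 to 5 and rising ones 2 over the alternatives with all libraries, and 4 to 5 and 1 to 3 with 1 library left out; the count of 1 was without WT replicate 1. NCOA2 lost its call only with neighbour medians removed, and the calls of MED1, HDAC3 and EP300 depended on single libraries or on scaling as given above. With neighbour medians removed, the signs of EP300 (-0.11), NCOR1 (-0.011), NCOA4 (0.066) and MED29 (0.053) reversed. In that fit EP300 was called lower and NCOA2 was not called, so its 5 falling co-regulators are not the same 5 as without this step. NCOR1 also changed sign with RLE factors (-0.00049) and when 1 library was left out (-0.0043 to 0.030), values too small to give a direction. The NCoR-HDAC3 complex partners had 2 rising genes in place of 1 with upper-quartile factors and with neighbour medians removed, and 4 falling in place of 2 with no filter. The cause was not tested. The ratios within libraries kept their sign in every run, with and without the pseudocount of 0.5.

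Same-numbered replicates did not deviate together (correlations of -0.27 to -0.0029 over 11296 genes), so the numbers are not taken as pairs. Between differently numbered WT and RARG-KO libraries the correlations were -0.19 to 0.28, the highest for WT replicate 2 with RARG-KO replicate 3. Whether libraries share a batch under another numbering was not tested. With the replicate block 4546 genes were higher and 4712 lower, against 4876 and 4978 without it; among the co-regulators only the call of MED1 was lost (log2 -0.10, edgeR adjusted p = 0.0597).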
